A study of Mus musculus with 4 samples.

Results

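The 9 genes of the T cell receptor (TCR) complex and its first signalling steps were followed across 4 arrays of mouse CD4+ T cells. They were taken by name, as every probe whose gene name in the scanner files was Cd3d, Cd3e, Cd3g, Cd247, Cd4, Lck, Zap70, Lat or Lcp2. This gave 20 probes of 9 genes, out of 46312 probes of 27144 named genes on the array. All 20 were well above local background on the 4 arrays.

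The TCR has no enzyme of its own. Its αβ chains bind peptide on MHC and sit in the membrane with the CD3δ, CD3ε, CD3γ and ζ chains, whose tails carry tyrosine motifs called ITAMs. The coreceptor CD4 binds MHC class II and brings in the kinase Lck, which phosphorylates the ITAMs. ZAP-70 docks on them and then phosphorylates the adaptors LAT and SLP-76 (the product of Lcp2), on which phospholipase Cγ1 and the Ras and calcium pathways are switched on. Nr4a1, Nr4a2 and Nr4a3 are nuclear receptors whose genes are turned on by this signal.

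The study asked how Nr4a factors act early in the differentiation of induced regulatory T (iTreg) cells. The cells were naive CD4+ T cells, sorted as CD4+, CD25low, CD44low and Foxp3-, among others, and either taken directly or cultured for 3 h under iTreg conditions. The culture used plate-coated anti-CD3 at 2 µg/ml, anti-CD28 at 0.5 µg/ml, anti-IFN-γ and anti-IL-4 at 1 µg/ml each, IL-2 at 10 ng/ml, and TGF-β1 at 0.2 or 0.5 ng/ml. Each stage was measured in WT cells and in Nr4a triple knockout (Nr4a-TKO) cells, with 1 array per group. Nr4a-TKO combines floxed Nr4a1 and Nr4a2 alleles with Nr4a3-/-, on C57BL/6J. The paper's description of the sorting also gives the Nr4a-TKO donor cells a Foxp3 reporter knock-in, and does not name it for the WT donors. The Cre driver, and which of the array probes the deletions remove, are not given in the sources used here. All cells were of the Ly5.2 type and developed from transplanted marrow in irradiated Rag2-/- hosts, which make no T or B cells of their own. Nr4a-TKO cells came from hosts given a mixture of WT and Nr4a-TKO marrow, whereas WT cells came from hosts given WT marrow alone. Genotype and kind of chimera therefore cannot be told apart. The age and number of the mice behind each array are not given in the labels. The paper's methods give young adult mice as an age range for the study, and a fixed time from transplantation to sorting.

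With no replicate, a difference between groups is a difference between 2 arrays, and no test was possible. Levels below are log2 of the background-corrected and quantile-normalized intensity of a probe. A gene took its brightest probe. From probes printed on several spots, a log2 difference between 2 arrays had an SD of 0.18, and a difference of 2 such differences an SD of 0.25. These cover the arrays alone, not the spread between mice or cultures. "Change" is the iTreg 3 h array minus the naive array of the same genotype label, and "genotype difference" is the array labelled Nr4a-TKO minus the array labelled WT. The threshold was 2-fold (1 on the log2 scale). The changes and the genotype differences are drawn from the same 4 arrays and are not independent of each other. In cell populations, fewer cells of a type and less RNA per cell cannot be told apart.

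The genotype labels could not be checked from the targeted genes. The Nr4a1 probe was higher on the arrays labelled Nr4a-TKO, at log2 levels of 8.39 against 7.05 in naive T and 11.82 against 11.34 at 3 h. The brighter Nr4a2 probe read 6.44 against 6.24 and then 10.21 against 8.83. Of 3 Nr4a3 probes, 2 read lower at 3 h under the Nr4a-TKO label (genotype differences of -1.86 and -1.47) and the brightest read 0.19 higher. For this reason arrays are named by their labels. Markers of B cells and MHC class II (8 of 8 well above background) had a summed linear level of 1246 on the WT and 1946 on the Nr4a-TKO naive array, and of 977 and 1944 at 3 h. In the naive genotype difference 7 were above 0 and 1 below, from -0.56 (Cd79b) to 1.61 (H2-Aa). At 3 h all 8 were above 0, from 0.07 (Ms4a1) to 1.38 (H2-Ab1). The CD8 markers Cd8a and Cd8b1 summed to between 74.4 and 142 on the 4 arrays. The NK cell marker Ncr1 and the erythroid marker Hbb-b1 were not well above background on any. The myeloid markers, with Itgam by far the brightest, summed to between 34770 and 39907, and at most 1 of the 7 was not well above background on an array. Itgam read between 14.98 and 15.14 on the 4 arrays and Csf1r, the next, between 11.16 and 11.76, so the sum mostly follows Itgam. Whether these probes read their gene alone was not tested. Among the dimmer myeloid markers, Cd14 read 6.66 on the WT and 3.97 on the Nr4a-TKO naive array, and Tyrobp 8.10 and 7.24. At 3 h, Cd14 and Tyrobp were instead higher under the Nr4a-TKO label, by 0.80 and 0.09. Of the 7 myeloid markers, 3 were above 0 and 4 below in the naive genotype difference, and 2 above and 5 below at 3 h. Foxp3 was 1.31 lower on the naive array labelled Nr4a-TKO and 1.36 lower at 3 h. The other Treg markers did not all go with it. Ikzf2 was at -1.37 in naive T and 0.16 at 3 h, where its probes ran from -1.67 to 0.16. Il2ra was at -0.07 and 0.05 by its brightest probe and at -0.43 and -0.002 by its other. Ctla4 was at 0.84 and 0.06. The part of these differences in the results below was not tested.

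The probes below show what was hybridized in the coding sequence of a member, and are printed 5′ to 3′ in the sense of the transcript. The first pair reads through an ITAM, and capitals mark its 2 tyrosine motifs (codons for tyrosine, any 2 residues, then leucine or isoleucine), found by translating the probe. The Lat probe holds a tyrosine, any residue, asparagine motif in capitals, of the kind that adaptors of the Grb2 family bind. The others are in lower case and stand for the kinases and for SLP-76. Positions are on mm9, as in the scanner files, and a probe whose ends lie further apart than its 60 bases crosses an intron.
Cd3d, A_51_P285206, chr9:44794171-44794402, plus strand: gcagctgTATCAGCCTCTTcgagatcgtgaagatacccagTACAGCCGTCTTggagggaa
Cd247, A_52_P173555, chr1:167786567-167787585, plus strand: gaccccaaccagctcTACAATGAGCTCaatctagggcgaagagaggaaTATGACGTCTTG
Lat, A_51_P495242, chr7:133507719-133507778, minus strand: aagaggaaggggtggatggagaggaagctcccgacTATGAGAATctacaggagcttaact
Zap70, A_55_P2153122, chr1:36839315-36839374, plus strand: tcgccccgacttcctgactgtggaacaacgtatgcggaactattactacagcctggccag
Lcp2, A_66_P122506, chr11:33989677-33990620, plus strand: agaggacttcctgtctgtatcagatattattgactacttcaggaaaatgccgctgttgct
Lck, A_55_P2506985, chr4:129229196-129229255, minus strand: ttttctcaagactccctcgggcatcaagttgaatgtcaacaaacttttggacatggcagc

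After 3 h, transcripts of the CD3 and ζ chains, the coreceptor and Lck were lower than in naive T, while those of Zap70 and Lcp2 were higher. The direction was the same under both genotype labels for 8 of the 9 genes. Lat was the exception, with changes of -0.42 and 0.07, the latter within the array SD. It was also the member that differed most between the genotype labels. On the arrays labelled WT, 7 members were below 0 in their change and 2 above, with a median of -0.63 against -0.06 over all 19589 genes measured. On those labelled Nr4a-TKO, 6 were below and 3 above, with a median of -0.84 against -0.02 over 20001 genes.

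**Figure D1:**
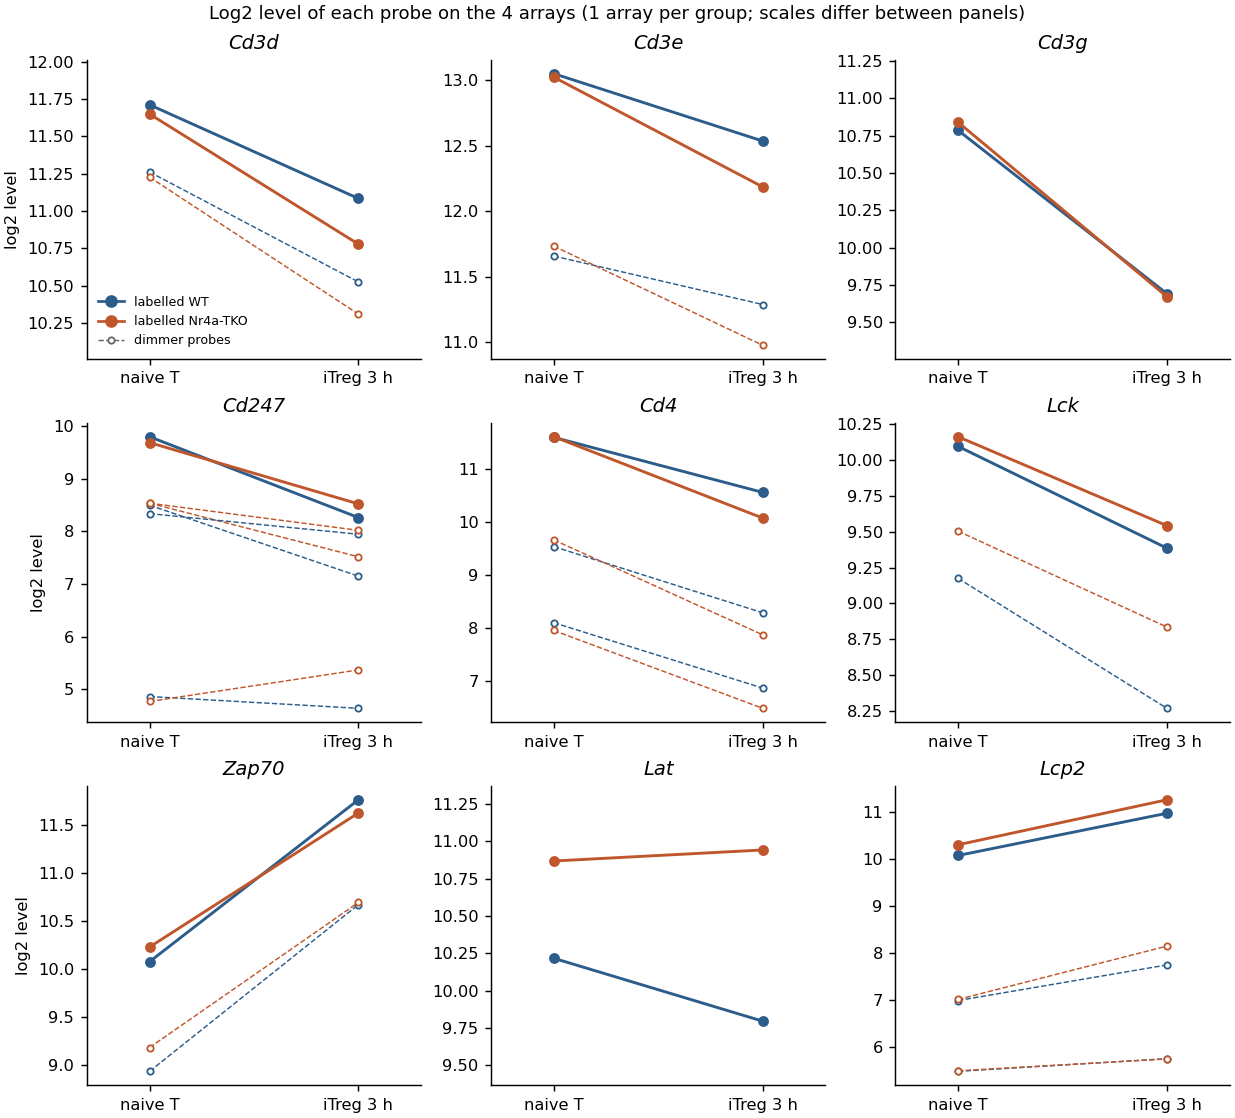
Log2 level of each of the 20 probes on the naive T and iTreg 3 h arrays, joined by a line for each genotype label (blue, WT; orange, Nr4a-TKO). Filled points are the brightest probe of a gene, open points its other probes, and each point is 1 array. In most panels the filled lines run close together, Cd4 slopes more steeply under the Nr4a-TKO label, and in Lat the lines are apart at both stages.

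CD3δ, CD3ε and CD3γ are the invariant chains that pair with the TCR, and their genes lie side by side on chromosome 9. The brightest Cd3d probe read 11.71 on the WT naive array, 11.65 on the Nr4a-TKO naive array, 11.08 on the WT 3 h array and 10.78 on the Nr4a-TKO 3 h array. Both 3 h arrays were thus below both naive arrays, by 0.63 under the WT and 0.87 under the Nr4a-TKO label. The probe through the ITAM gave -0.74 and -0.92. Cd3e read 13.05, 13.03, 12.54 and 12.19 in the same order, a change of -0.52 and -0.84, and its other probe gave -0.37 and -0.76. Cd3g, with 1 probe, read 10.79, 10.84, 9.69 and 9.67. Its change was -1.09 and -1.17, so that Cd3g was past 2-fold lower under both labels and the other CD3 genes were not.

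Cd247 encodes the ζ chain, which carries more ITAMs than any other chain of the complex. Its brightest probe, assigned to the transcript NM_001113391, read 9.79, 9.68, 8.26 and 8.52. The change was -1.53 under the WT label and -1.16 under the Nr4a-TKO label, 2.90-fold and 2.24-fold lower. The probe through the ITAM (NM_031162) read 8.49, 8.53, 7.15 and 7.52, changes of -1.35 and -1.02. For both of these probes the 3 h arrays were clearly below the naive ones. A further probe, placed downstream and assigned to NM_001113393, read 8.33, 8.53, 7.94 and 8.02, so that its changes of -0.39 and -0.51 were smaller. The dimmest, for an Ensembl transcript, read 4.86, 4.77, 4.64 and 5.37, with changes of -0.22 and 0.60. The probes of this gene therefore differed by up to 1.31 in the WT change and 1.76 in the Nr4a-TKO change, more than those of any other member.

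The CD4 coreceptor had 3 probes, and all were past 2-fold lower at 3 h under both labels. The brightest read 11.59 and 11.60 on the naive arrays, 10.56 on the WT 3 h array and 10.07 on the Nr4a-TKO 3 h array. Its change was -1.04 under the WT and -1.53 under the Nr4a-TKO label. Over the 3 probes, the changes ran from -1.24 to -1.04 and from -1.79 to -1.46. Lck, the kinase carried by CD4, read 10.10, 10.16, 9.39 and 9.54 with its brightest probe. Its change of -0.71 and -0.62 stayed under 2-fold, and the probe printed above gave -0.91 and -0.67.

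Zap70, the kinase recruited to phosphorylated ITAMs, went the other way. The scanner's processed intensity of its brightest probe was 827 and 907 on the WT and Nr4a-TKO naive arrays, and 3513 and 3125 on the 3 h arrays. In normalized log2 levels these were 10.08, 10.23, 11.76 and 11.63. Zap70 was thus 3.22-fold higher at 3 h under the WT label (1.69 on the log2 scale) and 2.63-fold higher under the Nr4a-TKO label (1.40). The second probe, in the coding sequence, gave 1.74 and 1.51. Among all genes measured, 2.89% had a higher WT change than Zap70 and 3.89% a higher Nr4a-TKO change.

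Lcp2, which encodes the scaffold SLP-76, read 10.08, 10.31, 10.98 and 11.27. Its change was 0.90 and 0.96, just under 2-fold, and the intron-crossing probe gave 0.76 and 1.14. A dim probe for another transcript gave 0.27 and 0.25. LAT is the membrane adaptor to which SLP-76 is joined, and its gene had 1 probe. It read 10.22 on the WT and 10.87 on the Nr4a-TKO naive array, then 9.80 and 10.94 at 3 h. The change was -0.42 under the WT label and 0.07 under the Nr4a-TKO label, the latter within the array SD.

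Counted past 2-fold, 3 members (Cd3g, Cd247 and Cd4) were lower under the WT label, where 9.01% of all genes were, and 1 (Zap70) was higher, where 8.57% were. Under the Nr4a-TKO label the same 3 genes were lower, beside 8.42% of all genes, and Zap70 was higher, beside 8.01%. These counts depend on the normalization. Scaling each array to its 75th percentile left 1 gene past 2-fold lower under each label (Cd247 under WT, Cd4 under Nr4a-TKO) and put Lcp2 past 2-fold higher beside Zap70. Under that scaling 12.0% of all genes were past 2-fold lower and 10.1% higher in the WT change, and 10.8% and 9.55% in the Nr4a-TKO change. Genes as bright as the members (2095 genes) had a median WT change of -0.14 in the quantile-normalized values and 0.04 in the scaled ones. Of these bright genes, 9.07% were more than 2-fold lower and 13.8% more than 2-fold higher in the WT change. The signs of all 9 members' changes were the same in the 7 other settings tried.

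**Figure D2:**
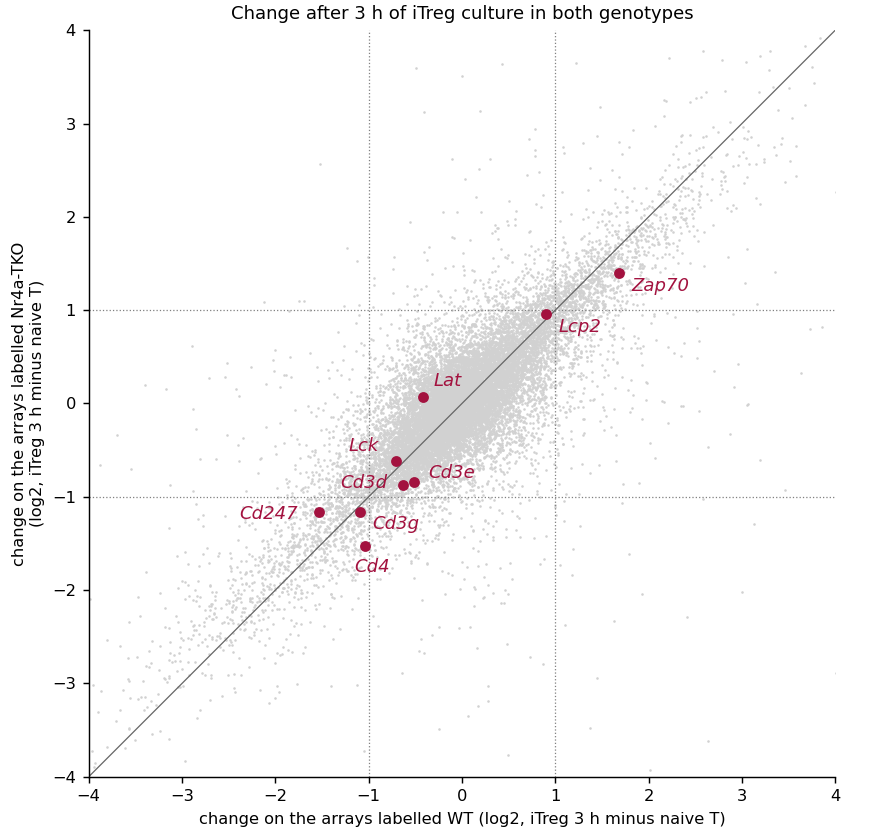
Change under the WT label (horizontal) against change under the Nr4a-TKO label (vertical), both log2, iTreg 3 h minus naive T, for 18789 genes in grey and the 9 members in red. Dotted lines mark 2-fold and the diagonal marks equal change, and 47 genes lie beyond the axes. Zap70 and Lcp2 sit at the upper right, Cd4, Cd247 and Cd3g at the lower left, and Lat lies above the diagonal near 0.

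Between the genotype labels, the brightest probes of most members differed little in naive T. Of the 9, 7 lay within the array SD of 0.18 of 0, and none was past 2-fold, where 1.90% of all 19496 genes were higher and 1.63% lower. The median was 0.05 against -0.02 over all genes. By their brightest probes, Cd3d, Cd3e, Cd3g, Cd247, Cd4 and Lck were between -0.11 and 0.07, and Zap70 was at 0.15. The second probes of Lck and Zap70 were at 0.33 and 0.25, beyond the array SD. Those of Cd3d and Cd3e were at -0.03 and 0.08. Over all their probes, Cd247 ran from -0.11 to 0.20 and Cd4 from -0.15 to 0.13. Lcp2 was at 0.23 by its brightest probe, and at 0.01 and 0.02 by its others. Lat was 0.65 higher, or 1.57-fold, and 4.20% of genes had a higher value.

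At 3 h, Lat was the member past 2-fold between the labels. It was 2.21-fold higher on the array labelled Nr4a-TKO (1.15 on the log2 scale), where 1.77% of all 19820 genes were past 2-fold higher and 1.91% lower. The processed intensities were 1016 and 1566 on the WT and Nr4a-TKO naive arrays and 1002 and 2118 at 3 h, so that both arrays labelled Nr4a-TKO were above both labelled WT. In the 7 other settings the difference was between 0.63 and 0.67 in naive T and between 1.10 and 1.15 at 3 h. Of the genes measured, 257 had a larger difference in this direction at 3 h, and among the genes as bright as the members 0.53% were past 2-fold higher. The widening of 0.49 from naive T to 3 h was about as large as that of Cd4 in the other direction (-0.50), against an array SD of 0.25 for such a value. All values of Lat rest on this 1 probe.

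At 3 h the brightest probes of Cd4, Cd3e and Cd3d read lower under the Nr4a-TKO label, at -0.48, -0.35 and -0.31. The 3 Cd4 probes ran from -0.48 to -0.38, both Cd3e probes were below -0.3, and the Cd3d probes were at -0.31 and -0.22. Cd3g did not go with its neighbours and was at -0.02. Cd247 was 0.26 higher under that label, and its 4 probes ran from 0.07 to 0.73. Lcp2 was 0.29 higher, with -0.01 and 0.40 from its other probes. Lck was 0.16 higher by the brightest probe and 0.57 by the coding one. Zap70 was at -0.14 and 0.02. The median over the members was -0.02 against 0.00 over all genes.

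**Figure D3:**
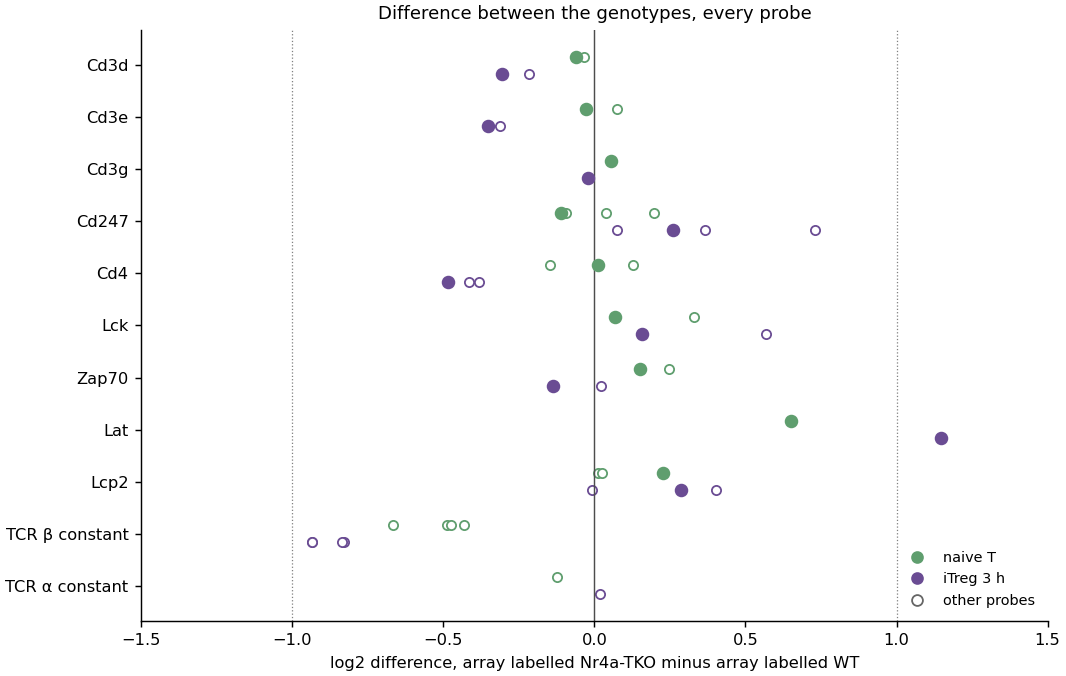
Log2 difference between the array labelled Nr4a-TKO and the array labelled WT in naive T (green) and at iTreg 3 h (purple), for every probe of the members and for the TCR constant region probes. Filled points are the brightest probe of a member, open points other probes, and dotted lines mark 2-fold. Lat lies farthest to the right at both stages, at 0.65 and 1.15, and the 4 TCR β constant probes lie to the left of 0 at both.

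Of the 12 symbols listed for the antigen receptor chains themselves, 2 (Tcra and Tcrb-J) were matched by name. Tcra read 5.96, 5.67, 5.98 and 5.82, and Tcrb-J 6.50, 6.30, 6.73 and 5.88, so that Tcrb-J was 0.85 lower on the 3 h array labelled Nr4a-TKO. Probes whose description names a TCR α or β segment were then collected, a choice made after other values were known. The 4 probes of the β constant regions, of which Trbc1 and Trbc2 are near-identical copies and not separable here, were lower at 3 h than in naive T by 0.33 to 0.45 under the WT and by 0.61 to 0.85 under the Nr4a-TKO label. They were also lower on the arrays labelled Nr4a-TKO, by 0.43 to 0.67 in naive T and by 0.83 to 0.94 at 3 h. The brightest of them read 13.30 on the WT and 12.82 on the Nr4a-TKO naive array. Of 20 β variable segment probes well above background, 18 were below 0 in the naive genotype difference and 17 at 3 h, with medians of -0.48 and -0.68, and their median changes from naive T to 3 h were -0.47 under the WT and -0.52 under the Nr4a-TKO label. The α chain went otherwise. Its constant probe was higher at 3 h than in naive T, by 0.18 under the WT and 0.32 under the Nr4a-TKO label, and its genotype differences were -0.12 and 0.02. The 60 α variable probes had a median change of 0.21 under the WT label (42 above 0 and 17 below, with 1 neither) and 0.02 under the Nr4a-TKO label (33 above and 27 below). Their genotype differences had medians of 0.00 in naive T and -0.16 at 3 h, where 46 were below 0. The T cell marker Thy1 was also lower on the arrays labelled Nr4a-TKO, at -0.36 in naive T and -0.70 at 3 h. Cd5, another such marker, was higher, at 0.28 and 0.53. Of the 7 T cell surface markers, 5 were below 0 and 2 above at each stage. The part of these markers in the differences was not tested. The β probes share targets and were read on the same arrays, so their number adds no replicate.

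The genes around the members were described from a list of 29 other proximal kinases, adaptors and regulators, all on the array. Under the WT label, 11 were more than 2-fold lower at 3 h and 4 higher, with a median of -0.79, beside 9.01% and 8.57% of all genes. Under the Nr4a-TKO label, 14 were lower and 1 higher, with a median of -0.94, beside 8.42% and 8.01%. Among those lower under both labels were adaptors that work next to SLP-76 and LAT. Grap2 (GADS), which links these 2, was at -2.68 and -2.15. Skap1 was at -2.91 and -2.33 and Fyb (ADAP) at -2.51 and -1.90, which together connect SLP-76 to integrins. Themis, a TCR signalling protein of T cell development, was at -2.93 and -1.72, and the Tec family kinase Txk at -2.93 and -2.64.

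Several transmembrane adaptors and inhibitors were lower as well. Sit1 was at -1.85 and -1.48, Pag1 at -1.67 and -1.22, and Lax1 at -1.43 and -1.33. A dim probe of Pag1 gave -0.69 and -0.43. Plcg1, the phospholipase assembled on LAT, was at -1.05 and -1.21. Its other probes stayed under 2-fold in the WT change, at -0.97 and -0.86, and gave -1.13 and -0.99 under the Nr4a-TKO label. Ubash3a, a suppressor of TCR signalling, was at -1.18 and -2.21. Its other probes were also under 2-fold in the WT change, at -0.69 and -0.79, and gave -1.37 and -1.29 under the Nr4a-TKO label. Sla2, with 1 probe, passed 2-fold under the WT label alone, with -1.02 and -0.90. By their brightest probes, Prkcq (-0.79 and -1.62), Nck2 (-0.58 and -1.02) and Trat1 (-0.96 and -2.28) passed it under the Nr4a-TKO label alone. The second probe of Nck2 was 2.83-fold and 3.79-fold lower under the WT and Nr4a-TKO labels and that of Trat1 2.34-fold and 2.02-fold, past 2-fold under both. This Trat1 probe was well above background on 3 of the 4 arrays. It read 3.60 on the Nr4a-TKO 3 h array, near that array's floor of 3.07. The costimulatory receptor Cd28 barely passed 2-fold under the Nr4a-TKO label alone, with levels of 11.21 and 10.21 there and of 11.01 and 10.91 under the WT label. Whether the labels differ in these genes could not be tested. Higher at 3 h were Sla (1.76 and 1.16), Ptpn22 (1.41 and 0.56) and the kinases Fyn (1.06 and 0.23) and Tec (1.00 and 0.18). The second probe of Tec gave -1.66 and -0.93, and a dim probe of Sla 0.82 and 1.38.

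**Figure D4:**
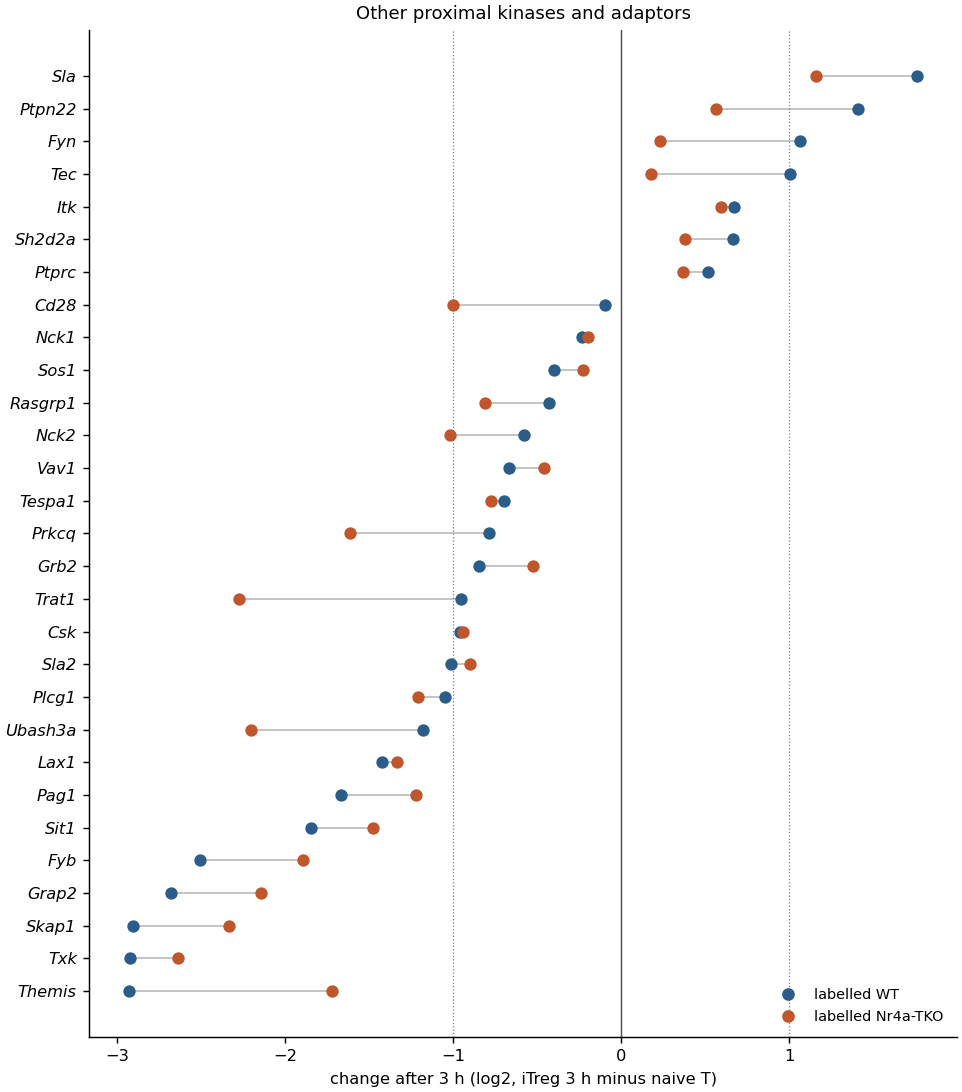
Change from naive T to iTreg 3 h (log2) of the 29 other proximal genes, ordered by the change under the WT label (blue) with the change under the Nr4a-TKO label in orange. Each point is a difference between 2 arrays, and dotted lines mark 2-fold. Most points lie left of 0, and Trat1, Themis, Ubash3a and Cd28 have the widest gaps between the labels.

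Between the labels, Trat1 stood out in this list. It encodes TRIM, a transmembrane adaptor found with the TCR and ζ chain, and read 8.21 and 7.25 on the WT arrays against 6.91 and 4.64 on those labelled Nr4a-TKO. The difference was -1.29 in naive T and -2.61 at 3 h. Its second, dimmer probe gave -1.41 and -1.20, the latter from a reading near the floor on the Nr4a-TKO array. Ubash3a was 1.14 lower at 3 h on the array labelled Nr4a-TKO, with -0.80 and -0.90 from its other probes. Themis was 0.96 higher at 3 h by its brightest probe and 1.25 higher by the next. No other gene of the 29 was past 2-fold between the labels with its brightest probe, and the medians were -0.06 in naive T and -0.06 at 3 h.

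All 7 T cell surface markers were well above background on the 4 arrays. Il7r, the IL-7 receptor chain, was at -3.02 under the WT and -2.76 under the Nr4a-TKO label. Cd5, a negative regulator of TCR signals, was at 1.03 and 1.28. Ccr7 was at -0.42 and -1.20, Cd27 at 0.67 and -0.37, Thy1 at -0.22 and -0.56, Cd2 at 0.12 and -0.21, and Cd6 at 0.41 and 0.88. Cd27 was 1.20 lower on the 3 h array labelled Nr4a-TKO, the one genotype difference past 2-fold in this list. The 10 activation genes had a median change of 2.58 and 2.13, and 8 were past 2-fold higher under each label, beside 8.57% and 8.01% of all genes. The others were Nfkbia (0.75 and 0.95) and Il2ra (0.30 and 0.42). The second probe of Il2ra gave 4.94 and 5.37. Conversely, a dimmer probe of Egr3, counted as past 2-fold, gave 0.76 under the Nr4a-TKO label.

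The mean pattern of the CD3 genes and Cd247 was then matched over the 4 arrays. These genes define the pattern, so their own distances to it are partly set by that choice. Their mean pattern, relative to the mean of each gene, was 0.51, 0.47, -0.44 and -0.54. Of the members, Cd3g lay closest to it (distance 0.18) and Lck (0.37) and Cd4 (0.41) lay nearer than Cd247 itself (0.46), while Zap70 (2.52), Lcp2 (1.93) and Lat (1.29) lay far from it. Of 15637 genes ranked, the 5 nearest were Ap5b1, 1810013L24Rik, Loxl2, Tmsb4x and Qsox1, at distances from 0.03 to 0.06. Only 4 arrays enter this match.

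The promoters of the members were searched for the letters AAAGGTCA, a site of Nr4a factors bound as monomers, and for CCGGAA and AGGAAG, 2 forms of the Ets site, on both strands. No GGAA core can belong to both Ets forms. The sequences are those of RefSeq on GRCm38.p6, cut to the 250 bases before a start, and 8 of the 9 members matched, with 11 starts. AAAGGTCA was found in 1 of the 11, at the last start of Zap70, and in 1.34% of all 32851 promoters. CCGGAA was found in 1 of 11, at the first start of Zap70, and in 12.0% of all. AGGAAG was found in 9 of 11, and in 29.5% of all. A match describes the letters alone and is not a site in use. The promoters of Zap70, the member with the largest positive change, and of Lat, which differed between the labels, are printed 5′ to 3′ on the strand of the gene, with these motifs in capitals.
Zap70, first start, chr1:36761548-36761797, plus strand: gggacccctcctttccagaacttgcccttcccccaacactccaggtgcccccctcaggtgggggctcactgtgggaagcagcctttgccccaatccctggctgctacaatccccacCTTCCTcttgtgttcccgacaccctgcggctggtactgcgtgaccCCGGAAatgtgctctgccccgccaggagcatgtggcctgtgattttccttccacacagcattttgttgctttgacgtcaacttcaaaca
Zap70, last start, chr1:36778734-36778983, plus strand: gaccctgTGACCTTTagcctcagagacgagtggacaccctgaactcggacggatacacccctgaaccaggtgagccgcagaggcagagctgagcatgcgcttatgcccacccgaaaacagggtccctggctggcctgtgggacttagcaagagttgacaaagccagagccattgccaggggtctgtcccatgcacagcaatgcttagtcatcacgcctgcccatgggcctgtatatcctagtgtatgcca
Lat, chr7:126369569-126369818, minus strand: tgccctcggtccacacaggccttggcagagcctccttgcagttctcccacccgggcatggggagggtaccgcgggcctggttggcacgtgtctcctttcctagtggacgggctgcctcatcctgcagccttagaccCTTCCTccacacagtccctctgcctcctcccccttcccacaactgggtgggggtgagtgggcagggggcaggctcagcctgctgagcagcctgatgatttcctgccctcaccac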

How the data were processed

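The authors deposited, for each array, the scanner output of Agilent Feature Extraction 11.5.1.1, which gives the mean, local background and processed intensity of each spot and quality flags. A further deposited table holds log2 values. The study's methods name RMA in GeneSpring, but 99.9% of the table's values were within 0.02 of log2 of the processed intensity minus a constant for each array (6.35 to 6.58).

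The deposited mean intensities were corrected by normexp with an offset of 0, quantile-normalized over the 4 arrays and log2-transformed in limma 3.58.1 (R 4.3.3), following the steps of RMA. Control spots and between 115 and 160 outlier spots per array were left out, spots of a probe were averaged, and no spot was saturated. Dim probes (not well above background) were set to at least the level of the dimmest well-measured probe of that array (3.07 to 3.45), and a difference needed 1 of its 2 arrays well above background. A gene took its brightest probe. Of 56605 probes, 41700 had a current symbol, 1518 were named by transcript and 520 by synonym (RefSeq, GRCm38.p6), 2574 kept the name in the files and 10293 had none. Between 65.0% and 67.7% of probes were well above background, and the number of arrays limits the precision. The array SD came from 300 probes with at least 5 spots, without a cut on their level. Sequences and figures used Python 3.11.15, pandas 2.3.3, numpy 2.4.6 and matplotlib 3.10.9.

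The members and lists were chosen with earlier results of these data known. Named are all members, the targeted genes, the receptor chains and T cell surface markers, those of the 29 proximal genes past 2-fold in a comparison, and the 5 genes nearest in pattern. Some cell type markers and activation genes are named as well. Counting was checked on simulated data. The alternatives were the deposited values, 75th percentile scaling, averaging all probes of a gene, a normexp offset of 50, leaving out the background correction, a stricter and no filter on dim probes, and thresholds of 1.5-fold and 3-fold. The TCR segment probes and the genes as bright as the members were added after values were seen. A gene of the proximal list and one of the surface marker list are not reported here and were left out of the counts.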

Additional observations from a re-analysis of the deposited data

How the results depend on the processing

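Of 45 values (9 members in 5 comparisons), 42 had the same sign in the 7 other settings, and 38 stayed on the same side of 2-fold. The 3 that did not keep their sign were naive genotype differences close to 0 (Cd3e, Cd247 and Cd4). With 75th percentile scaling, and equally with the deposited values, the number of members more than 2-fold lower went from 3 to 1 under either label, and the number higher from 1 to 2. Cd3g was then at -0.90 and -0.89 in the WT change, Cd4 at -0.84 and -0.83, and Lcp2 at 1.08 and 1.10. In the Nr4a-TKO change Cd247 was at -0.98 and -0.96. Lat moved from -0.42 to -0.22 and -0.21 in the WT change, and from 0.07 to 0.26 and 0.28 in the Nr4a-TKO change. The median Nr4a-TKO change of the members was -0.65 with that scaling, -0.63 in the deposited values and -0.65 with the mean of all probes, which put Cd247 at -0.87 under the WT and -0.52 under the Nr4a-TKO label. At 1.5-fold, 5 members were lower and 2 higher under the WT label, 6 lower and 2 higher under the Nr4a-TKO label, and 1 (Lat) higher in naive Nr4a-TKO. Of all genes, 18.2% were lower and 17.0% higher at 1.5-fold in the WT change, 17.4% and 16.6% in the Nr4a-TKO change, and 5.07% higher between the naive arrays. At 3-fold, Zap70 stayed higher under the WT label (3.46% of all genes), and 0 members were lower under either label (4.08% and 3.67% of all genes). Under the Nr4a-TKO label 0 were higher (2.77% of all genes), and between the genotypes at 3 h 0 were higher (0.55% of all genes). Scaling moved the median change of all genes from -0.06 to -0.12 under the WT label. No paired analysis was possible because each group had 1 array.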
